A study of Rattus norvegicus with 12 samples.

Results

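The granins, Vgf and the enzymes that process prohormones were followed in F11 cells, a hybrid line of rat dorsal root ganglion neurons and mouse neuroblastoma cells, during 48 h of forskolin. The members are 10 genes taken by name: Chga, Chgb, Scg2, Scg3, Scg5 and Vgf, and the enzymes Pcsk1, Pcsk2, Cpe and Pam. The array carried 16 probes for them among its 41012 distinct probes, each a 60-base oligonucleotide spotted once. Of these, 14 probes for 9 genes were measured, meaning well above background in the same channel on each of the 3 arrays of some time point, which held for 20419 probes of the array. They passed it at every time point, and Pcsk1 was the gene that failed it.

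Granins are acidic proteins of the regulated secretory pathway. In the trans-Golgi network they aggregate with prohormones and amines and help to form dense-core granules, and they are themselves cut into peptides. Inside the granule the prohormone convertases PC1/3 (Pcsk1) and PC2 (Pcsk2) cut precursors after pairs of basic residues, carboxypeptidase E (Cpe) trims the exposed basic residues, and peptidylglycine alpha-amidating monooxygenase (Pam) amidates the carboxyl end. Sensory neurons release neuropeptides from such granules, and several granin genes are textbook targets of cyclic AMP signalling through the transcription factor CREB.

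After 3 h in low-serum medium (0.5% fetal calf serum), F11 cells received 10 µM forskolin, an activator of adenylyl cyclase, for 2, 4, 24 or 48 h, with 3 samples per time point. Each sample was labelled with Cy3 (green) and hybridised against a common Cy5 (red) reference, RNA of unstimulated F11 cells taken when the low-serum period of 3 h ended. All values are log2 ratios of green over red, so that 0 is the reference level and 1 is a doubling, given as mean ± SD of 3 arrays. No unstimulated sample was hybridised as a sample of its own, so a test against the reference leaves out the spread of unstimulated cultures. No dyes were swapped and no unstimulated sample was kept for 2 to 48 h, so forskolin, the time in culture and a dye effect peculiar to a probe cannot be told apart in a change against the reference. A fixed dye effect drops out of a difference between time points. Each slide held 1 array of every time point, always at the same position for a given time, so that position and time cannot be told apart. The labels give replicate numbers but no separate cultures, so p-values measure only how far these samples scatter, which may be technical. How much signal comes from mouse copies of a gene on these rat probes was not tested.

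On each array 19889 to 21973 of 43379 spots were well above background in green and 19504 to 23285 in red. Log2 ratios correlated between replicates over all kept probes at 0.608 to 0.795 at 2 h and at 0.843 to 0.937 at the later times. Of 11 neuron markers 10 were measured, and the sum of their background-corrected green signals was 45300 to 48900 scanner units at 2 h and 77600 to 83100 at 48 h. Of 7 glia, 6 fibroblast, and 6 leukocyte and endothelium markers, 2, 3 and 4 were measured, with sums of at most 175, 651 and 426 units on any array. Those not well above background included the glial Gfap, Mbp and S100b, the fibroblast Col3a1, Dcn and Lum, and Pecam1 and Aif1.

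Under loess normalisation Scg2 and Vgf stood above the reference at 2 h, Pam rose between 2 and 4 h, and Chga and Chgb rose between 4 and 48 h. With each array centred only on its median, Scg2 and Vgf read -0.41 and -1.19 at 2 h. Each gene is represented here by its brightest probe. All 6 granin-family genes were higher than the reference at 24 and 48 h under loess normalisation, while under median centring Scg2 was the granin above 0 at 24 h, and Scg2 and Chga were those above 0 at 48 h. Cpe and Pcsk2 lay within 0.25 of the reference at every time under loess, on the log2 scale. At 2 h, 5 of the 9 measured genes passed the test (2 higher, 3 lower), where 27.7% of all kept probes were called (10.8% higher, 16.9% lower). At 4 h, 5 passed (3 higher, 2 lower), against 49.3% of probes (21.1% higher, 28.2% lower). At 24 h, 9 passed (8 higher, 1 lower), against 52.4% of probes (24.5% higher, 27.9% lower). At 48 h 8 passed, all higher, against 56.5% (26.8% higher, 29.7% lower). The median over the 6 granin-family genes was -0.13, -0.10, 0.51 and 0.95 at 2, 4, 24 and 48 h, while the median over all kept probes was -0.02 at every time. The 3 measured enzymes had medians of -0.08, 0.01, 0.22 and 0.25.

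**Figure D1:**
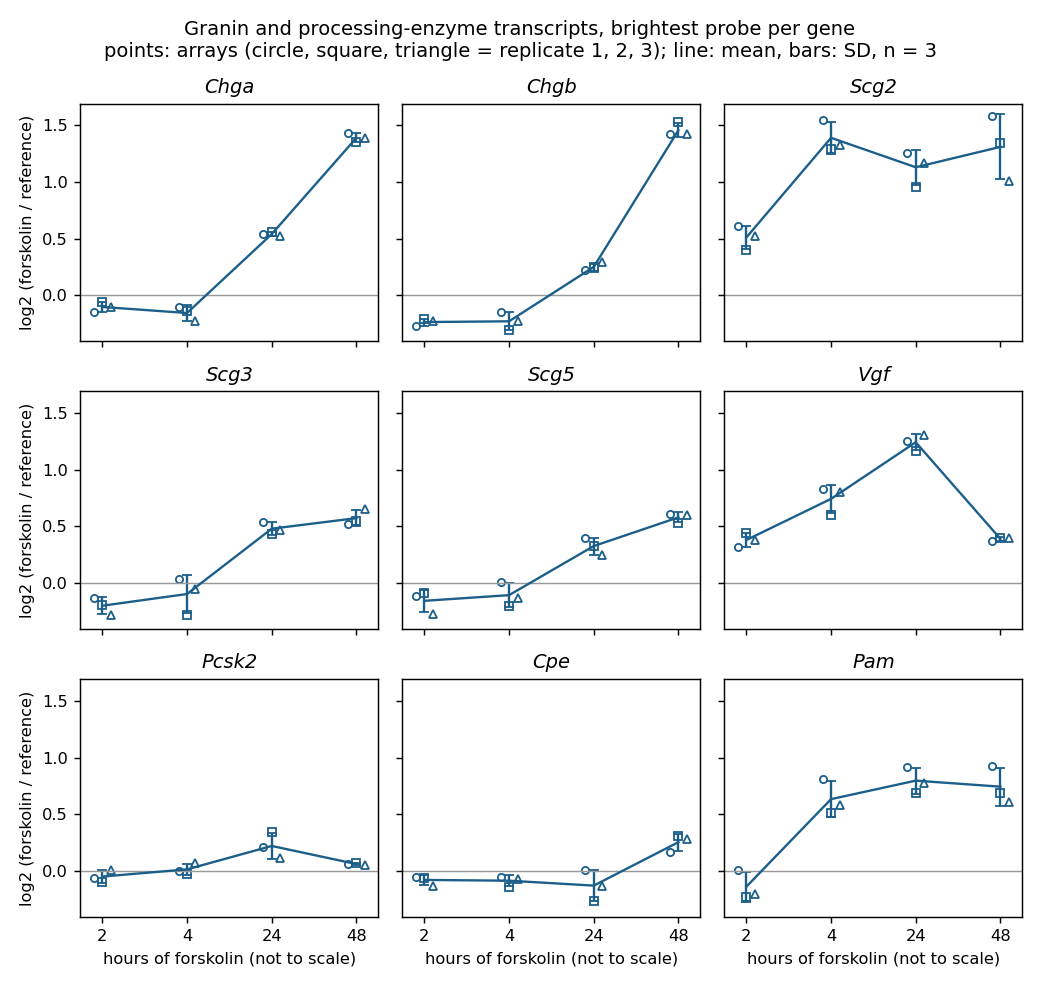
Log2 ratio of forskolin over reference (loess-normalised, vertical axis) against hours of forskolin for the brightest probe of each of the 9 measured genes, with 1 point per array and the mean ± SD of 3 arrays. Chga and Chgb reach their highest values at 48 h, Vgf peaks at 24 h and Scg2 is already at 1.39 at 4 h. Under median centring the positions relative to 0 shift. The positive means of Vgf, Pam, Chgb, Scg3, Scg5 and Cpe shown here all turn negative. So do those of Chga at 24 h, Scg2 at 2 h, and Pcsk2 at 4 and 48 h. Single arrays of Pam at 24 h (0.10) and of Chgb at 48 h (0.25) stay above 0.

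The promoters of CREB targets often hold the cyclic AMP response element TGACGTCA. For that reason 150 bases before the annotated start are shown for Scg2 and Vgf, whose brightest probes were called higher at 2 h under loess. They are also shown for 2 granin genes that had not risen by 4 h on their brightest probe, Chgb and Scg3. The dimmer Scg3 probes were called higher at 4 h (0.22 and 0.64), and the dimmer Scg5 probe already at 2 h (0.19). The sequences are RefSeq promoters of assembly GRCr8, in which 8 of the 10 members were listed. Chga and Pcsk1 were not, so the late-rising Chga could not be searched. Capitals mark TGACGTCA or, in Scg3, its first 5 letters TGACG.
Scg2 (chr9:88256867-88257016, minus strand): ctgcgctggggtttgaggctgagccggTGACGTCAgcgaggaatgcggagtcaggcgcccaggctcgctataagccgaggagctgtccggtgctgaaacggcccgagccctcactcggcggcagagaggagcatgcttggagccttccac
Vgf (chr12:25277021-25277170, minus strand): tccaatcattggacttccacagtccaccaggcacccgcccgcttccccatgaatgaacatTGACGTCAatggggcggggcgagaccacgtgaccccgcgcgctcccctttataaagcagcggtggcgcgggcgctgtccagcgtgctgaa
Chgb (chr3:140496562-140496711, plus strand): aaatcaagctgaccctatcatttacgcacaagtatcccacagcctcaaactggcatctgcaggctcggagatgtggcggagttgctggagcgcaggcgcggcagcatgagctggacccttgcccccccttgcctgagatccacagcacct
Scg3 (chr8:85322485-85322634, minus strand): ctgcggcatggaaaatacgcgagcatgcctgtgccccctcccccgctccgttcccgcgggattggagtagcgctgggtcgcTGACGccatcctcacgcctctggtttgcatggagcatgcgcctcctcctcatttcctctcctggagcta

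TGACGTCA, which reads the same on both strands, began 123 bases before the start of Scg2 and 90 bases before that of Vgf. Searched over 300 bases (250 before to 50 after the start), it was found in these 2 of the 8 listed members and in 612 of 33469 promoters (1.83%). The shorter TGACG, searched on both strands and contained in TGACGTCA, was found in 7 of the 8 (Scg2, Vgf, Scg3, Scg5, Pcsk2, Cpe and Pam) and in 21.2% of all promoters. Chgb held neither string in this window. A match is a description of the letters and was not tested for binding.

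Scg2 encodes secretogranin II, the precursor of secretoneurin. Its log2 ratios were 0.61, 0.40 and 0.52 at 2 h, 1.55, 1.29 and 1.33 at 4 h, 1.26, 0.96 and 1.17 at 24 h, and 1.58, 1.34 and 1.01 at 48 h. Every array was above the reference, the 2 h arrays lay below all others, and the 48 h arrays overlapped those of both 4 and 24 h. The rise was 1.42-fold at 2 h (0.51 ± 0.11, adjusted p = 0.0011) and 2.62-fold at 4 h (1.39 ± 0.14, adjusted p = 3.1e-08), by limma with Benjamini-Hochberg adjustment over all kept probes. The step from 2 to 4 h was 0.88 (SE 0.126, adjusted p = 0.00032). The step from 4 to 24 h of -0.26 had an adjusted p of 0.13, and of 0.035 with the slide as a block. The 48 h value was 1.31 ± 0.29, the widest spread of any member.

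Vgf encodes a secreted neuropeptide precursor that is induced by growth factors and activity in neurons. Its ratios were 0.32, 0.44 and 0.38 at 2 h, 0.83, 0.60 and 0.80 at 4 h, 1.25, 1.17 and 1.31 at 24 h, and 0.37, 0.40 and 0.40 at 48 h. The 3 arrays of 24 h lay above all others, and the 48 h arrays fell within the range of the 2 h arrays. Vgf was thus 2.36-fold above the reference at 24 h (1.24 ± 0.07, adjusted p = 1.5e-10) and 1.31-fold at 48 h (0.39 ± 0.01, adjusted p = 1e-05). Between 24 and 48 h it fell by 0.85 (SE 0.069, adjusted p = 2.9e-06), the one member called lower in that step.

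Chga encodes chromogranin A, the precursor of vasostatin, pancreastatin and catestatin. On its brighter probe the ratios were -0.15, -0.06 and -0.10 at 2 h, -0.10, -0.14 and -0.23 at 4 h, 0.54, 0.56 and 0.52 at 24 h, and 1.43, 1.35 and 1.39 at 48 h. The 24 h arrays lay above all earlier ones and the 48 h arrays above those of 24 h. The 48 h level was 2.62-fold that of the reference (1.39 ± 0.04, adjusted p = 4.6e-12). Chga was called lower at 4 h (-0.16 ± 0.07, adjusted p = 0.0041), a call that was lost without replicate 3 of 4 h (adjusted p = 0.059). Its second probe, which lies upstream of it in the files' positions, read 0.20 ± 0.07 at 4 h and was called higher there (adjusted p = 0.009). Both probes were called higher at 24 h and at 48 h, where the second read 0.90 ± 0.16.

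Chgb encodes chromogranin B, the other classical chromogranin. Its ratios were -0.27, -0.21 and -0.23 at 2 h, -0.15, -0.31 and -0.23 at 4 h, 0.22, 0.24 and 0.29 at 24 h, and 1.42, 1.53 and 1.42 at 48 h. All arrays of 2 and 4 h lay below the reference and all later ones above it. The gene was called lower at 2 h (-0.23 ± 0.03, adjusted p = 0.0011) and at 4 h (-0.23 ± 0.08, adjusted p = 0.00043). At 48 h it was 2.74-fold above the reference (1.46 ± 0.06, adjusted p = 4.8e-12) under loess, and at -0.05 under median centring. The step from 24 to 48 h was 1.21 (SE 0.059, adjusted p = 4.6e-08).

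Scg3 encodes secretogranin III, which binds chromogranin A and cholesterol-rich granule membrane. On its brightest probe it was lower at 2 h (-0.20 ± 0.07, adjusted p = 0.016), with values of -0.13, -0.19 and -0.28, and higher at 24 h (0.48 ± 0.06, adjusted p = 7.2e-06) and 48 h (0.58 ± 0.06, adjusted p = 8.7e-07). The 24 h arrays read 0.54, 0.43 and 0.47 and the 48 h arrays 0.52, 0.55 and 0.65, which overlap. Scg5 encodes 7B2, the chaperone of the PC2 proenzyme. Its brightest probe read -0.11, -0.09 and -0.27 at 2 h, 0.40, 0.33 and 0.25 at 24 h, and 0.61, 0.53 and 0.60 at 48 h. It was higher at 24 h (0.32 ± 0.08, adjusted p = 9.6e-05) and at 48 h (0.58 ± 0.05, adjusted p = 2.5e-07). The lower calls of Scg3 and Scg5 at 2 h were both lost without replicate 3 of that time (adjusted p = 0.14 and 0.26). Without replicate 2 that of Scg3 was lost (0.064), while that of Scg5 was kept at the cutoff (0.05 after rounding). The call of Scg5 was also lost without replicate 1 (0.052), with a normexp offset of 0 (0.054) or with no filter (0.061). The late steps were 0.57 for Scg3 and 0.43 for Scg5 from 4 to 24 h (adjusted p = 5.5e-05 and 0.00025).

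Pam amidates the carboxyl end of peptides. Its ratios were 0.01, -0.23 and -0.20 at 2 h, 0.81, 0.51 and 0.58 at 4 h, 0.92, 0.69 and 0.78 at 24 h, and 0.93, 0.69 and 0.61 at 48 h. The 2 h arrays lay below all others, and the 3 later times overlapped. Pam rose by 0.77 from 2 to 4 h (SE 0.102, adjusted p = 0.00016) and stood 1.55-fold, 1.74-fold and 1.67-fold above the reference at 4, 24 and 48 h. At 2 h its value of -0.14 ± 0.13 had an adjusted p of 0.17, and of 0.014 with the slide as a block. The step of 0.17 from 4 to 24 h likewise had an adjusted p of 0.23, and of 0.025 with the block.

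Cpe trims the basic residues that the convertases leave. It read -0.05, -0.06 and -0.13 at 2 h, -0.05, -0.14 and -0.07 at 4 h, 0.01, -0.27 and -0.13 at 24 h, and 0.17, 0.31 and 0.28 at 48 h. The 48 h arrays lay above all others, at 1.19-fold the reference (0.25 ± 0.07, adjusted p = 0.0007), and the step from 24 to 48 h was 0.38 (adjusted p = 0.0026). Under median centring this step was 0.30 and no longer called (adjusted p = 0.48), with arrays of -0.56, -1.07 and -0.93 at 24 h and -0.83, -0.52 and -0.32 at 48 h, which overlap. Its lower call at 24 h (-0.13 ± 0.14, adjusted p = 0.046) was lost when any array other than replicate 1 of 24 h or of 48 h was left out, with adjusted p-values from 0.053 to 0.42.

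Both Pcsk2 probes were dim, with green signals of 72.2 to 84.2 scanner units, so that their ratios are compressed towards 0. The brighter one read 0.21, 0.34 and 0.11 at 24 h (0.22 ± 0.12, adjusted p = 0.001) and 0.06, 0.07 and 0.05 at 48 h (adjusted p = 0.3). The second read 0.21 ± 0.01 at 2 h, 0.25 ± 0.02 at 24 h and 0.30 ± 0.06 at 48 h and was called higher at these 3 times. With Agilent's processed signals the second probe read 0.59, 0.50, 0.75 and 0.95 at the 4 times, and the brighter one 0.50 at 24 h. The 24 h rise of the brighter probe over 4 h (0.21, adjusted p = 0.02) was lost without replicate 1 or 2 of 4 h (adjusted p = 0.054 and 0.071) and without replicate 2 of 24 h (0.1). Under median centring the step was 0.27 and not called by limma (adjusted p = 0.099). In the green channel alone the step was 0.06 (adjusted p = 0.46). It was also 0.06 when the background was left in (adjusted p = 0.34), and 0.49 with an offset of 0 (adjusted p = 0.016), so its size rests on the background setting.

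Pcsk1 could not be followed. Its 2 probes read 57.1 to 68.3 units in green and 98.1 to 116 in red. They were well above background in 1 green reading of 24 and in no red reading of 24, so no fold is given.

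Between successive times, 3 of the 9 genes were called from 2 to 4 h (Scg2, Vgf and Pam, all higher), where 14.9% of probes were called (5.65% higher, 9.22% lower). From 4 to 24 h, 6 were called, all higher (Chga, Chgb, Scg3, Scg5, Vgf and Pcsk2), against 38.5% of probes (20.2% higher, 18.3% lower). With the slide as a block 8 were called (7 higher, 1 lower), against 43.3% of probes. From 24 to 48 h, 5 were called, with Chga, Chgb, Scg5 and Cpe higher and Vgf lower, against 14.0% of probes (7.37% higher, 6.64% lower). The call of Scg5 in the last step (0.26, adjusted p = 0.028) was lost without replicate 2 or 3 of 24 h or without any 48 h replicate but the second (adjusted p = 0.066 to 0.12). The F test across the 4 times called all 9 genes, against 52.9% of probes. Under median centring it called 7, against 24.5% of probes. It called 8 in the green channel alone (49.9% of probes), without background correction (56.9%) and without replicate 2 of 24 h (50%).

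Probes of the same gene did not always move together. Probes are numbered by brightness, and the dimmer probes of Scg3 and Scg5 are shown here because they are read below against the brightest probe of their gene, with positions on build rn3 as the files give them. The second probes of Chga and Pcsk2, whose values are given above, also departed from the brighter ones and are not shown.
Scg3 probe 2 (chr8:80515412-80515471, minus strand): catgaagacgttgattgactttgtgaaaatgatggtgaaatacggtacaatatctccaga
Scg3 probe 3 (chr8:80531393-80531452, minus strand): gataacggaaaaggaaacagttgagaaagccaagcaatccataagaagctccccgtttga
Scg5 probe 2 (chr3:99537692-99541650, minus strand): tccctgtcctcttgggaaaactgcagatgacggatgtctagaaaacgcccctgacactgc

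All 3 have some reading frame without a stop codon. Whether they lie in coding sequence was not tested. The 60 bases of Scg5 probe 2 span 3959 bases of the genome and so cross an intron. The brightest Scg3 probe lies at chr8:80487002-80487061, toward the 3' end of the gene from both others.

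Scg3 probe 3 read 0.27, 0.28 and 0.31 at 2 h, 0.53, 0.66 and 0.72 at 4 h, 0.15, 0.18 and 0.24 at 24 h, and 0.07, 0.19 and 0.30 at 48 h. Its 4 h arrays lay above all others. From 4 to 24 h it fell by 0.45 (SE 0.069, adjusted p = 0.00015), while the brightest Scg3 probe rose by 0.57. Under median centring this step of probe 3 was -0.28 and no longer called by limma (adjusted p = 0.11). The brightest probe kept its call, at 0.65 (adjusted p = 0.0031). Scg3 probe 2 read 0.22 ± 0.13 at 4 h and 0.35 ± 0.07 at 48 h, called higher at both. Scg5 probe 2 read 0.19 ± 0.04, 0.50 ± 0.08, 0.72 ± 0.08 and 0.91 ± 0.05 at 2, 4, 24 and 48 h, and was called higher at all 4 times. At 2 h it was called opposite to the brightest Scg5 probe. Under loess no probe of Scg3 or Scg5 was called lower at 24 or 48 h. Under median centring the brightest probes of both were, at -0.63 and -0.88 at 24 h and -0.59 and -0.68 at 48 h. Scg3 probe 3 was dim, with green signals of 98.9 to 137 units.

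**Figure D2:**
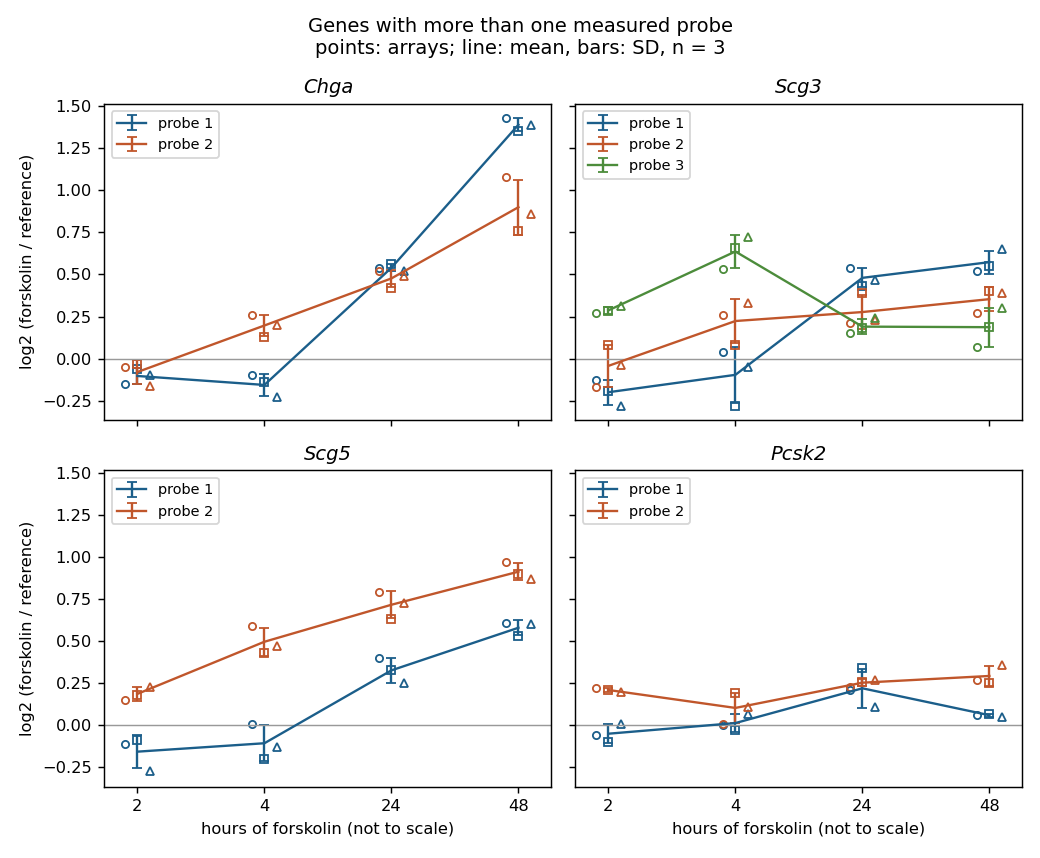
Log2 ratio of forskolin over reference (loess-normalised) by hours of forskolin for the probes of the 4 genes with more than 1 measured probe, numbered by brightness, with 1 point per array and the mean ± SD of 3 arrays. Scg3 probe 3 is highest at 4 h (0.64) whereas Scg3 probe 1 is highest at 48 h (0.58); positions relative to 0 are those under loess, and most of the positive ones turn negative under median centring.

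For many of the member values, the scaling of bright spots decides on which side of the reference they fall. Vgf and Chgb had the 75th and 110th brightest of the 20419 kept probes, Scg5 the 905th, Scg3 the 1574th, Chga the 2348th and Pam the 2398th. These ranks describe the probes, not the abundance of the transcripts. On all 12 arrays bright spots were relatively redder than dim ones. With each array centred only on its median, the 1021 brightest probes (5%) had medians of -1.37, -1.31, -1.28 and -1.34 at 2, 4, 24 and 48 h, and the 16335 dimmest had medians of -0.30 to -0.39. Loess removes this trend, and the corresponding medians of the brightest were 0.03, 0.02, 0.02 and 0.00. With Agilent's processed signals they were 0.02, 0.02, 0.00 and -0.01. In the authors' deposited log2 values, turned to green over red, they were 0.01, 0.02, 0.03 and 0.01.

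A value is said to have reversed where its sign turned and it was called under at least 1 of the 2 settings. Under median centring, 29 of the 98 values of the 14 probes reversed, all of them against the reference. A further 14 lost a call and 8 gained one. Vgf then read -1.19, -0.73, -0.24 and -1.12, Chgb -0.05 at 48 h, and Scg3 and Scg5 -0.59 and -0.68 at 48 h. The measured genes were then called 0 higher and 8 lower at 2 h, 1 higher and 7 lower at 4 h, 1 higher and 7 lower at 24 h, and 2 higher and 5 lower at 48 h. Of all kept probes, 76.8%, 77.5%, 72.4% and 73.5% were called either way at these times under this scaling. Median centring also moved the median of all kept probes to between -0.43 and -0.56 against the reference. Of the genes' brightest probes, those above 0 under this scaling were Chga at 48 h (0.27), Pcsk2 at 24 h (0.11) and Scg2 at 4, 24 and 48 h (0.39, 0.31 and 0.44).

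The members were also read against probes of like brightness, in a comparison chosen after seeing the data. The 200 kept probes nearest in brightness to Vgf had a median of -1.45 at 24 h under median centring, so that Vgf stood 1.21 above them, and 0.0% of them exceeded it. Chgb at 48 h stood 1.39 above its neighbours, 0.5% of which exceeded it. Chga at 48 h stood 1.38 above, with 0.0% exceeding it, and Scg2 at 4 h 1.40 above, also with 0.0%. For Pam at 24 h the difference was 0.84, with 3.5% of neighbours higher. Cpe at 48 h, by contrast, was exceeded by 27.5% of its neighbours, Scg3 probe 3 at 48 h by 25.0% and Chgb at 24 h by 17.5%. Relative to these neighbours none of the 98 values reversed under either scaling, but 14 lost their call under median centring. Subtracting the median of the neighbours takes out the trend with brightness, as loess does. The closeness of these differences to the loess values thus follows from the construction and is no check on the scaling. Relative to the median of coarser brightness classes under median centring, 6 values reversed, among them Scg2 at 2 h (-0.01) and Cpe at 48 h (-0.23). In the steps between times, median centring reversed none but removed some limma calls. Among the brightest probes, Vgf lost its call from 2 to 4 h (0.46, adjusted p = 0.16). Pcsk2 lost its call from 4 to 24 h (0.27, adjusted p = 0.099). Scg5 and Cpe lost theirs from 24 to 48 h (0.20 and 0.30, adjusted p = 0.74 and 0.48). Dimmer probes of Chga, Scg3 and Scg5 lost step calls too. The step of Cpe from 4 to 24 h changed sign, from -0.04 to 0.13, but was called under neither scaling.

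**Figure D3:**
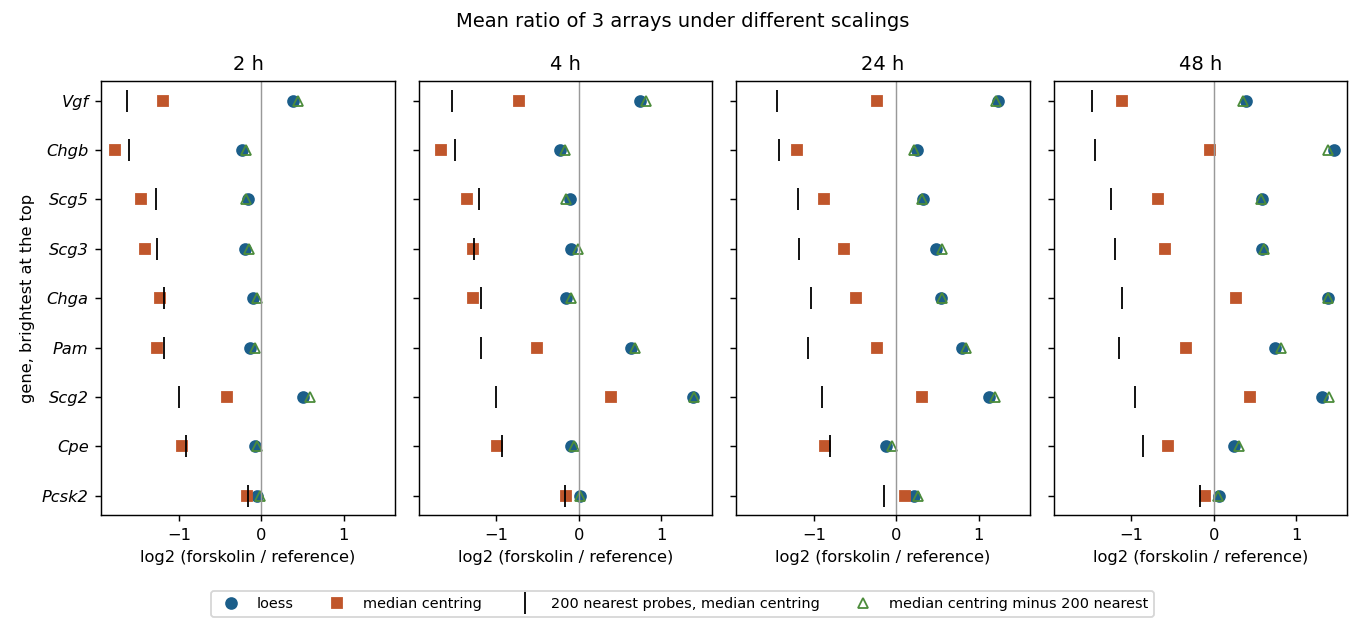
Mean log2 ratio of 3 arrays (horizontal axis) of each gene's brightest probe at 4 times, under loess, under median centring, as the median of the 200 probes nearest in brightness under median centring, and as the difference from that median. The squares lie left of the circles by over 1 for the bright probes of Vgf and Chgb. The triangles fall close to the circles, since both take out the trend with brightness.

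For Chgb the reference channel moved as well. Mean red signals of Chgb, which come from the common reference, were 153000, 126000 and 123000 units at 2 h and 133000, 123000 and 122000 at 24 h, but 111000, 92100 and 63600 at 48 h. The green signals were 36600, 35700 and 33400 at 24 h and 57700, 62700 and 58200 at 48 h. With each channel quantile-normalised between arrays, the red signal of Chgb fell by 0.43 from 24 to 48 h (SE 0.06, adjusted p = 0.046), on all 3 slides, and Chgb was among the 3 probes (0.0147%) whose red signal was called in that step. The green signal alone rose by 0.72 (1.65-fold, adjusted p = 0.00029), compared with 1.21 (2.31-fold) for the ratio. For Vgf the same step was -0.62 in green (adjusted p = 2.6e-05), 0.28 in red (adjusted p = 1) and -0.85 in the ratio. No member spot was marked saturated in either channel. The red difference of Chga was 0.08, and its green difference of 0.91 was close to its ratio of 0.85. The part of the red change in the Chgb and Vgf ratios was not tested.

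**Figure D4:**
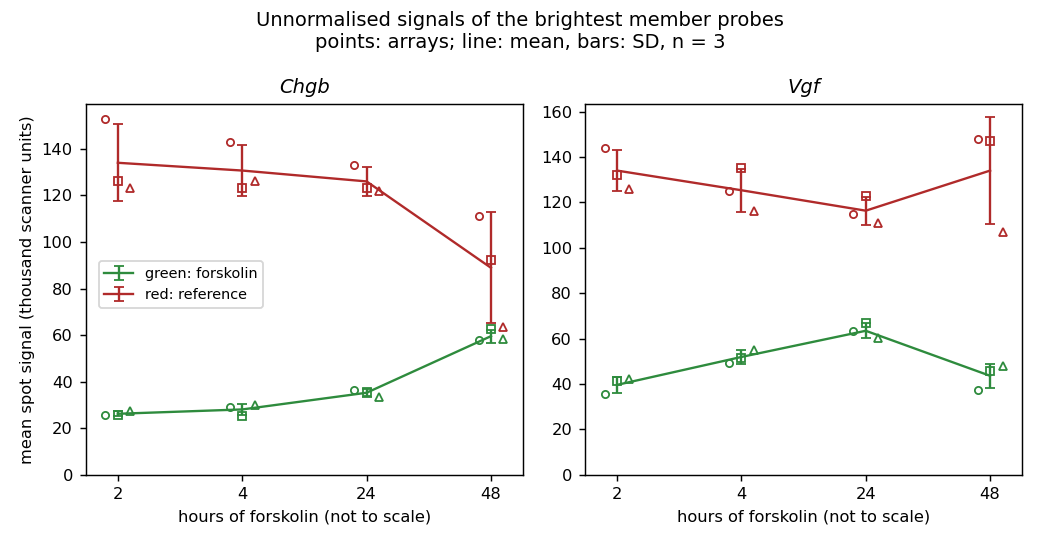
Unnormalised mean spot signal in scanner units divided by 1000 (axis from 0) of the Chgb and Vgf probes, in green for the forskolin samples and red for the reference, with 1 point per array and the mean ± SD of 3 arrays at each time. At 48 h the green Chgb signal is at its highest (57700 to 62700 units) and its red signal at its lowest (63600 to 111000 units).

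Neither gene is in the authors' deposited values. Of the 43379 non-control spots, 170 were absent from the authors' table, among them the Chgb and Vgf probes and all of the 100 brightest kept probes. Each of the 170 had a red mean signal over 65000 units on at least 1 array, as had 356 spots in all, and 2 of them were marked saturated. For the other 7 measured genes, the authors' deposited table, turned to green over red, gave no reversed value.

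The rest of the pathway was counted in the same way, on the brightest probe of each gene and under loess. Of 30 genes of granule assembly, transport and release, 18 were measured, and 9 were higher and 4 lower at 24 h (24.5% and 27.9% of all kept probes), and 10 higher and 3 lower at 48 h (26.8% and 29.7% of all). Their medians were 0.16 and 0.17, beside -0.02 over all kept probes. Ptprn, the granule membrane protein IA-2, reached 1.89 ± 0.10 at 24 h (3.71-fold, adjusted p = 9.2e-11). Snap25, a SNARE protein of exocytosis, reached 1.47 ± 0.29 at 48 h (adjusted p = 4.2e-08). Slc18a1, the vesicular monoamine transporter VMAT1, was lower at 4 h (-0.33 ± 0.18) and higher at 24 h (1.16 ± 0.29). Rab3c, a small GTPase of secretory vesicles, was lower at 48 h (-0.43 ± 0.06).

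Of 19 other convertases, trimming enzymes and inhibitors, 13 were measured. At 4 h 1 was higher and 7 were lower, where 21.1% of all kept probes were higher and 28.2% lower. At 48 h 7 were higher and 2 lower, against 26.8% and 29.7% of all. Their medians were -0.15 and 0.12. Pcsk6, the convertase PACE4, read -0.55 ± 0.08 at 4 h and 0.71 ± 0.10 at 48 h, both called. The lysosomal protease gene Ctsl was higher at 24 h (0.71 ± 0.11), and Ctsb was lower at 4 h (-0.53 ± 0.09). Furin, the convertase of the constitutive pathway, was higher at 24 h (0.33 ± 0.09, adjusted p = 0.0032).

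Of 16 transcription regulators of neuroendocrine genes, 14 were measured, with 7 higher and 1 lower at 2 h (10.8% and 16.9% of all kept probes), 5 and 5 at 4 h (21.1% and 28.2%), 5 and 4 at 24 h (24.5% and 27.9%), and 7 and 4 at 48 h (26.8% and 29.7%). Their medians were 0.14, 0.06, 0.03 and 0.17. Crem, a gene with a cyclic AMP-inducible repressor form, reached 3.20 ± 0.05 at 4 h (9.16-fold). Rcor2 and Sin3a, subunits of corepressor complexes, were lower at 4 h (-0.65 ± 0.09 and -0.68 ± 0.16). Of 22 genes of peptide cargo, 12 were measured, and 7 were higher and 3 lower at 24 h, with a median of 0.15, where 24.5% of all kept probes were higher and 27.9% lower. Tac1, the substance P precursor, read 3.27 ± 0.11 at 4 h. Npy was the lowest of the list, at -0.74 ± 0.01 at 24 h. Of the 10 measured neuron markers, 4 were higher and 5 lower at 4 h (21.1% and 28.2% of all kept probes) and 7 higher and 0 lower at 48 h (26.8% and 29.7%), with a median of 0.38 at 48 h beside the granins' 0.95. Scaling bears on several of the named genes of these lists. Under median centring the positive values of Prph at 48 h, Pcsk6 at 48 h, Ctsl at 24 h and Furin at 24 h became -0.61, -0.41, -0.30 and -0.33. Relative to the median of all kept probes under that scaling they were -0.17, 0.03, 0.13 and 0.10. The values given for Ptprn, Snap25, Slc18a1, Rab3c, Ctsb, Crem, Rcor2, Sin3a, Tac1 and Npy kept their sign on both scales, and the list counts are those under loess. The part of a general shift of neuronal transcripts in the change of the granins was not tested.

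The glia markers were 0 higher and 2 lower of 2 measured at 4 h (21.1% and 28.2% of all kept probes) and 0 higher and 1 lower at 48 h (26.8% and 29.7%). Of 3 fibroblast markers 1 was higher and 2 were lower at 48 h. Of 4 leukocyte and endothelium markers 1 was higher at 48 h, namely Vwf (0.98 ± 0.03), and none was lower.

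For the 3 members with the largest range over time, the genes with the most similar profiles over the 12 arrays were sought among 5562 named genes that passed the F test. Pearson correlations are descriptions here, since the arrays share time points and slides. Most like Chgb were Ndrg4 (r = 0.996), Ptgds (0.994) and Ddah2 (0.989). Ndrg4 read -0.18, -0.20, 0.26 and 1.38 at the 4 times, close to Chgb in size as well as in shape, and Ptgds 1.41 at 48 h. Most like Chga were Eno3 (0.993), Gstp1 (0.991) and Tppp3 (0.991), of which Tppp3 reached 1.64 at 48 h. Most like Pam were Tmem108 (0.953), Rpp38 (0.952) and Kif3a (0.941), and Tmem108 read 0.80, 0.82 and 1.02 at 4, 24 and 48 h.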

How the data were processed

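The members and gene lists were chosen with earlier results of these data known. Total RNA was labelled and hybridised to 2-colour rat arrays, per the labels' protocols. Per the file headers, Feature Extraction 9.5.1.1 gave the deposited mean spot intensity and median background intensity of each channel, for 45018 spots on build rn3. The authors' series matrix holds deposited log2 values (limma per the submitters' processing notes, version not given); the sources used here do not say how they were normalised. Against the scanner values of 5872 bright spots they ran red over green (r from -0.9946 to -0.9984 with green over red, column medians 0.0067 to 0.0125), so their scale and direction are known and their centring is near 0.

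Here limma 3.58.1 (under R 4.3.3, data.table version 1.17.8) corrected the mean intensities with normexp (offset 50) and normalised ratios within arrays by loess (control spots weighted 0, outlier-marked spots dropped). A probe was kept if well above background in the same channel on all 3 arrays of a time point. One linear model of the 12 arrays (8 residual degrees of freedom) gave each time against 0, successive times and the F test, with Benjamini-Hochberg adjustment over all kept probes and calls at an adjusted p under 0.05. The fit was tested on simulated data. The 3 arrays per time limit the precision. Probe names were updated through RefSeq (GRCr8): 10735 by accession, 5571 by current symbol and 3729 by synonym, with 20977 left as in the files. The 10 members were always described; from each list up to 3 called genes with the largest change each way were eligible to be named.

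The replicate number equals the slide, per the file headers. Deviations from the time means correlated at 0.342 to 0.483 between arrays of slide 1, 0.065 to 0.316 for slide 2 and 0.058 to 0.255 for slide 3, and at -0.403 to 0.313 between slides. The slide as a block was an alternative. Other alternatives were the background correction, offset, scaling, filter, probe choice, outlier spots, the authors' values, the green channel alone and leaving out each array.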

Additional observations from a re-analysis of the deposited data

Results flagged for a closer look

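Each measured member had at least 1 step between successive times that passed the test of that difference in limma. Of all kept probes, 14.9%, 38.5% and 14.0% were called from 2 to 4, 4 to 24 and 24 to 48 h. The share of all probes with at least 1 called step is not given here. The largest called step of each member, picked from these same data, follows. Chgb rose by 1.21 and Chga by 0.85 from 24 to 48 h on the log2 scale, and Cpe by 0.38. Vgf moved the other way in the same interval, at -0.85. Scg2 and Pam rose by 0.88 and 0.77 from 2 to 4 h. From 4 to 24 h Scg3 rose by 0.57, Scg5 by 0.43 and Pcsk2 by 0.21. The limma call of the Cpe step was lost under median centring (0.30, adjusted p = 0.48). That of the Pcsk2 step was lost under median centring as well (0.27, adjusted p = 0.099), and in the green channel alone (0.06, adjusted p = 0.46).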

How the results depend on the processing

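Of the 98 values of the 14 member probes, 0 reversed without background correction, with offset 0, with Agilent's processed signals, with no filter, with outlier spots kept, with the replicate block, or relative to the 200 probes nearest in brightness under loess or median centring (these last settings and the centring over kept probes were chosen after seeing the data). None of the 84 values available from the authors' table, of the 91 under the strict filter, of the 63 with 1 probe per gene, or of the 42 steps in the green channel alone reversed. Leaving out each array gave 1176 values, of which 0 reversed, 41 lost a call and 5 gained one. Agilent's signals, the authors' values and the comparison with the nearest probes carry little trend with brightness. They therefore do not check the removal of that trend. Changes of sign between values that were not called are not counted as reversed. Pcsk2 at 2 h, for example, read -0.05 under loess and 0.20 with Agilent's processed signals.

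Median centring turned these values against the reference. At 2 h Scg2 read -0.41, Scg3 probe 3 -0.13, Scg5 probe 2 -0.87 and Vgf -1.19. At 4 h Chga probe 2 read -0.80, Pam -0.51, Scg3 probe 2 -0.44, Scg5 probe 2 -0.58 and Vgf -0.73. At 24 h Chga read -0.49 and its probe 2 -0.37, Chgb -1.20, Pam -0.24, Scg3 -0.63 with probes 2 and 3 at -0.27 and -0.18, Scg5 -0.88 with probe 2 at -0.23, and Vgf -0.24. At 48 h Chga probe 2 read -0.04, Chgb -0.05, Cpe -0.55, Pam -0.34, Scg3 -0.59 with probes 2 and 3 at -0.23 and -0.25, Scg5 -0.68 with probe 2 at -0.09, and Vgf -1.12. Relative to the median of the brightness class under this centring, Pcsk2 (0.23) and Scg2 (-0.01) reversed at 2 h, Chga probe 2 (-0.39) and Scg3 probe 2 (-0.04) at 4 h, Chga probe 2 (-0.06) at 24 h and Cpe (-0.23) at 48 h. Centred on the median of the kept probes, Pcsk2 (0.39), Scg5 probe 2 (-0.32) and Vgf (-0.64) reversed at 2 h, Chga probe 2 (-0.24), Scg5 probe 2 (-0.03) and Vgf (-0.17) at 4 h, Chga (-0.05), Chgb (-0.76), Scg3 (-0.20) and Scg5 (-0.45) at 24 h, and Cpe (-0.10), Scg3 (-0.13), Scg5 (-0.23) and Vgf (-0.67) at 48 h.

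Counts of called genes moved as follows. At 2 h, 5 became 8 (0 higher, 8 lower) under median centring, 8 (1 higher, 7 lower) centred on kept probes and 3 of 7 in the authors' table. At 4 h, 5 became 8 (1 higher, 7 lower), 8 (2 higher, 6 lower) and 3 of 7. The authors' table lacks Chgb and Vgf, which were called at both times, and lost no call of the other genes. It called 27.2% of all its probes at 2 h and 49.2% at 4 h. At 24 h the count of 9 (8 higher, 1 lower) became 8, with 1 higher and 7 lower under median centring and 4 each way centred on kept probes. At 48 h the 8 higher became 2 higher and 5 lower, and 4 higher and 2 lower. Under median centring 76.8%, 77.5%, 72.4% and 73.5% of all kept probes were called at 2, 4, 24 and 48 h. Centred on kept probes the shares were 82.4%, 82.9%, 79.6% and 81.3%. Under median centring the 3 genes called from 2 to 4 h became 2, against 1.88% of all kept probes. The 6 called from 4 to 24 h became 5, against 18.1%. From 24 to 48 h, 5 became 3 under median centring, 3 relative to the brightness class or the 200 nearest probes, where 1.44% of all probes were called, and 3 of 7 in the authors' table, which lacks Chgb and Vgf and lost no call of the other genes. Without single arrays the counts were 3 to 5 at 2 h, the lowest without replicate 3 of that time, 4 to 6 at 4 h, 8 to 9 at 24 h, 8 at 48 h, 3 from 2 to 4 h, 5 to 6 from 4 to 24 h and 4 to 5 from 24 to 48 h. The replicate block pairs arrays by slide. It gained 5 calls and lost 0 (Pam at 2 h and from 4 to 24 h, Scg2 from 4 to 24 h, Pcsk2 probe 2 at 4 h at 0.10, and Scg5 probe 2 from 24 to 48 h at 0.20, adjusted p = 0.033), and changed no other call. Signal over background limits Pcsk2, and Pcsk1 gives no value.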
